A study of Mus musculus with 79 samples.

Results

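The expression of 10 genes of the glucocorticoid and corticotropin-releasing hormone (CRH) stress axis was examined by bulk RNA sequencing in the medial prefrontal cortex (mPFC) and the ventral hippocampus (vHipp) of adult male mice. The genes were chosen by symbol for their known roles, 10 of the 55471 genes of the table, and all of them passed the filter on low counts in both regions. The receptors were Nr3c1 and Nr3c2, the hormone-regenerating enzyme was Hsd11b1, the genes known to be induced by glucocorticoids were Fkbp5, Tsc22d3 and Sgk1, and the CRH system was represented by Crh, Crhr1, Crhr2 and Crhbp. The mice were of the outbred CD-1 strain and wild type, and lived in groups. Their stated age was 9 to 10 weeks, and their age when tissue was taken is not given. Chronic social defeat stress (CSDS) mice met an aggressive resident on each of 21 days and went back to their own cage mates, and control (CTRL) mice were kept in the same room without defeat. After the defeat period, all groups lived for 4 days in an enriched arena, the social box. Each mouse then received 1 intraperitoneal injection of saline or of (R,S)-ketamine at 10 mg/kg, and tissue was taken 7 days later. Between injection and tissue, groups were repeatedly moved to a box with the bedding of another group. Each of the 4 groups held 10 mice, and the mPFC of 1 ketamine-treated CSDS mouse was not analyzed here, which left 39 mPFC and 40 vHipp libraries.

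Glucocorticoids act in the brain through the glucocorticoid receptor, encoded by Nr3c1, and the mineralocorticoid receptor, encoded by Nr3c2. The mineralocorticoid receptor binds corticosterone with high affinity and is known for its high level in the hippocampus. Ligand-bound receptor enters the nucleus, binds glucocorticoid response elements and induces genes such as Fkbp5, whose product is a co-chaperone that lowers the affinity of the receptor for hormone. CRH is the hypothalamic peptide that starts the hormonal stress response, and it is also made by cortical and hippocampal interneurons, where it acts through the receptors encoded by Crhr1 and Crhr2 and is bound by the protein encoded by Crhbp.

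Libraries held between 11726129 and 41767119 counts, so counting error was small for all members other than Crh and Crhr2, which had as few as 4 and 11 counts in a library. Levels are given in CPM, the counts of a gene relative to the TMM-scaled total of its library, and differences as log2 fold changes (LFC) with their standard error (SE). Defining markers were in place: all 5 neocortical markers were higher in the mPFC, 5 of 6 hippocampal markers were higher in the vHipp, and no marker gene was at 0 in every library. A few libraries stood apart by their levels of cell type markers. The mPFC libraries of mice 2, 6 and 22 held a summed oligodendrocyte marker level of 4687, 5683 and 5815 CPM against a median of 1387 CPM, the vHipp library of mouse 11 held 3043 CPM of astrocyte markers against a median of 1180 CPM, and the vHipp library of mouse 9 held 697 CPM of choroid plexus markers against a median of 21.7 CPM. In bulk tissue, fewer cells of a type and less RNA per cell cannot be told apart.

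**Figure D1:**
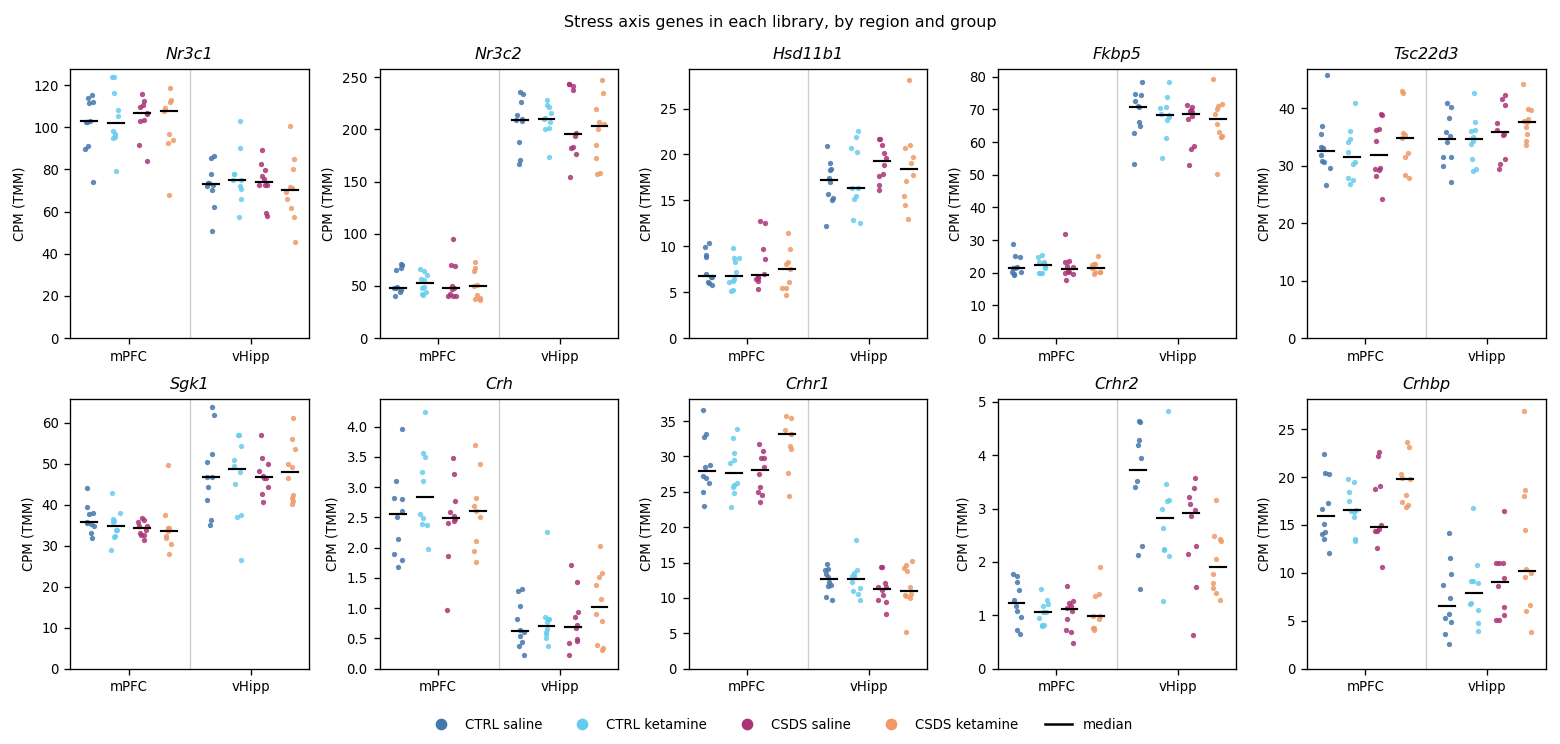
Level of each of the 10 genes in every library, in CPM on a linear axis that starts at 0. Each point is a library, colors give the 4 stress and treatment groups within the mPFC and the vHipp, and black lines are group medians. The 2 regions lie apart for Nr3c2, Fkbp5 and Crhr1, and the 4 groups within a region overlap for every gene.

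The receptors had opposite regional patterns, with more of the glucocorticoid receptor gene in the mPFC and more of the mineralocorticoid receptor gene in the vHipp. Nr3c1, on chromosome 18 (ENSMUSG00000024431, 39410545 to 39519421, minus strand, GRCm38), had a lowest, median and highest level of 67.9, 105.3 and 123.8 CPM in the mPFC and 45.5, 72.8 and 103.1 CPM in the vHipp. The ranges overlapped, yet each of the 39 mice with both regions had more Nr3c1 in its mPFC. Nr3c2, on chromosome 8 (ENSMUSG00000031618, 76899442 to 77245012, plus strand), had 36.2, 48.9 and 95.3 CPM in the mPFC and 154.8, 207.5 and 247.4 CPM in the vHipp, so that the lowest vHipp library lay above the highest mPFC library. Nr3c1 was 1.40-fold higher in the mPFC (LFC 0.49, SE 0.048, adjusted p = 7.34e-15) and Nr3c2 was 3.85-fold higher in the vHipp (LFC -1.94, SE 0.064, adjusted p = 7.09e-43, edgeR quasi-likelihood test with Benjamini-Hochberg adjustment). Of the 31534 genes tested, 48.9% passed the same test, 24.5% higher and 24.4% lower in the mPFC, and all 10 members did, 4 higher and 6 lower. Libraries of both regions lay apart for 2.92% of all genes and for 3 members, Nr3c2, Fkbp5 and Crhr1.

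Hsd11b1 encodes the enzyme that regenerates active corticosterone from its inactive form inside cells. It lies on chromosome 1 (ENSMUSG00000016194, 193221634 to 193264075, minus strand) and overlaps Lamb3 on the opposite strand, so reads of Lamb3 could add to it if counting ignored strand, which the sources used here do not state. Nr3c2 and Fkbp5 likewise overlap predicted genes on both strands. It was a low gene in both regions, at 4.74, 6.93 and 12.8 CPM in the mPFC and 12.2, 17.8 and 28.2 CPM in the vHipp. The ranges met at their ends, and all 39 mice had the higher level in the vHipp. The difference was 2.37-fold (LFC -1.25, SE 0.071, adjusted p = 2.11e-27, edgeR).

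The genes known to be induced by glucocorticoids differed in size of the regional difference. Fkbp5, on chromosome 17 (ENSMUSG00000024222, 28399094 to 28517527, minus strand), had a lowest, median and highest level of 17.8, 21.4 and 31.8 CPM in the mPFC and 50.1, 68.7 and 79.4 CPM in the vHipp, with no overlap. The vHipp level was 3.04-fold higher (LFC -1.61, SE 0.038, adjusted p = 5.79e-53, edgeR). Sgk1, which encodes a kinase that regulates ion channels and transporters, lies on chromosome 10 (ENSMUSG00000019970, 21882184 to 21999903, plus strand). It had 28.1, 34.8 and 49.7 CPM in the mPFC and 26.4, 46.9 and 63.9 CPM in the vHipp, with wide overlap, and 37 of 39 mice had more in the vHipp. Its difference was 1.35-fold (LFC -0.43, SE 0.047, adjusted p = 2.95e-13, edgeR).

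Tsc22d3, which encodes the leucine zipper protein GILZ, a mediator of glucocorticoid action in immune cells, lies on chromosome X (ENSMUSG00000031431, 140539528 to 140600659, minus strand). Its levels were close between regions, at 24.2, 32.4 and 45.8 CPM in the mPFC and 27.3, 35.7 and 44.2 CPM in the vHipp, and 25 of 39 mice had more in the vHipp. The LFC of -0.10 (SE 0.043) passed the test by a small margin (adjusted p = 0.0377, edgeR). It did not pass without the vHipp library of mouse 11 (adjusted p = 0.053, edgeR) or without a filter on low counts (adjusted p = 0.068, edgeR), and with the mouse as a block it was at an adjusted p of 0.00852 (edgeR). Sgk1 and Tsc22d3 each have several annotated starts, and the 300-base promoter windows from RefSeq (GRCm38.p6, 250 bases before to 50 after a start) were searched on both strands for the palindrome GNACANNNTGTNC of the glucocorticoid response element and for its hexamer AGAACA. The following windows are shown because both genes went together across mPFC libraries, as described further on, and because the Sgk1 window is the one with the palindrome and the Tsc22d3 window the only one of that gene with a hexamer, with matches in capitals.
Sgk1: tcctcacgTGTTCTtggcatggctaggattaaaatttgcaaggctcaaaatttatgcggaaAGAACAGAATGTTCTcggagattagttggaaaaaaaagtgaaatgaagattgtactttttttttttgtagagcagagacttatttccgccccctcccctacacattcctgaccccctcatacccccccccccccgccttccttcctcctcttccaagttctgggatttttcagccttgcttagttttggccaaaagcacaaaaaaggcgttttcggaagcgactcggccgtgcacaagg
Tsc22d3: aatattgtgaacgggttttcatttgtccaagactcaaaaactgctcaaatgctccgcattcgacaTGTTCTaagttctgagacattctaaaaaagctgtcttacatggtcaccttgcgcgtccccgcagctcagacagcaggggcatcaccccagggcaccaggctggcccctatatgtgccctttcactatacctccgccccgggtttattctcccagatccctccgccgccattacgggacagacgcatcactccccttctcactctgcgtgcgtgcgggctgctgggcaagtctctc
The Sgk1 window lies at chr10:21993640-21993939 on the plus strand, and the palindrome in it, GAACAGAATGTTC, starts at position -188 from the transcript start and overlaps hexamers on both strands. Another 2 of the 6 Sgk1 windows, not shown, hold 1 hexamer each, at positions -195 and -13. The Tsc22d3 window lies at chrX:140600473-140600772 on the minus strand and holds 1 hexamer, at position -185. The palindrome was found in 0.475% of 32851 promoter windows and the hexamer in 19.0%, and among 15 windows of 8 members the palindrome was in 1 and the hexamer in 4. A match is a description of these letters and no evidence of binding.

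The CRH system was split between the regions, with the genes for the ligand, its high-affinity receptor and its binding protein higher in the mPFC and Crhr2 higher in the vHipp. Crh, on chromosome 3 (ENSMUSG00000049796, 19693401 to 19695396, minus strand), had a lowest, median and highest level of 0.963, 2.56 and 4.25 CPM in the mPFC and 0.227, 0.741 and 2.26 CPM in the vHipp. All 39 mice had more in the mPFC, and the difference was 3.12-fold (LFC 1.64, SE 0.133, adjusted p = 7.29e-19, edgeR). Crhr1, on chromosome 11 (ENSMUSG00000018634, 104132855 to 104175523, plus strand), encodes the high-affinity CRH receptor. It had 22.9, 28.9 and 36.5 CPM in the mPFC and 5.25, 11.7 and 18.2 CPM in the vHipp, with no overlap between regions. The mPFC level was 2.42-fold higher (LFC 1.28, SE 0.053, adjusted p = 5.79e-36, edgeR).

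Crhr2, on chromosome 6 (ENSMUSG00000003476, 55090049 to 55133016, minus strand), encodes the receptor that prefers urocortins. It was near 1 CPM in the mPFC, at 0.490, 1.08 and 1.91 CPM, and reached 0.635, 2.56 and 4.83 CPM in the vHipp. The vHipp level was higher in 38 of 39 mice and 2.41-fold higher in the fit (LFC -1.27, SE 0.110, adjusted p = 2.01e-17, edgeR), a direction opposite to that of Crhr1. Crhbp, on chromosome 13 (ENSMUSG00000021680, 95431371 to 95444924, minus strand), encodes the secreted protein that binds CRH and urocortin. It had 10.7, 17.0 and 23.7 CPM in the mPFC and 2.55, 8.83 and 26.9 CPM in the vHipp, where the highest library, of mouse 5, lay above every mPFC library. The mPFC level was 1.89-fold higher (LFC 0.92, SE 0.113, adjusted p = 3.59e-11, edgeR), in 36 of 39 mice.

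**Figure D2:**
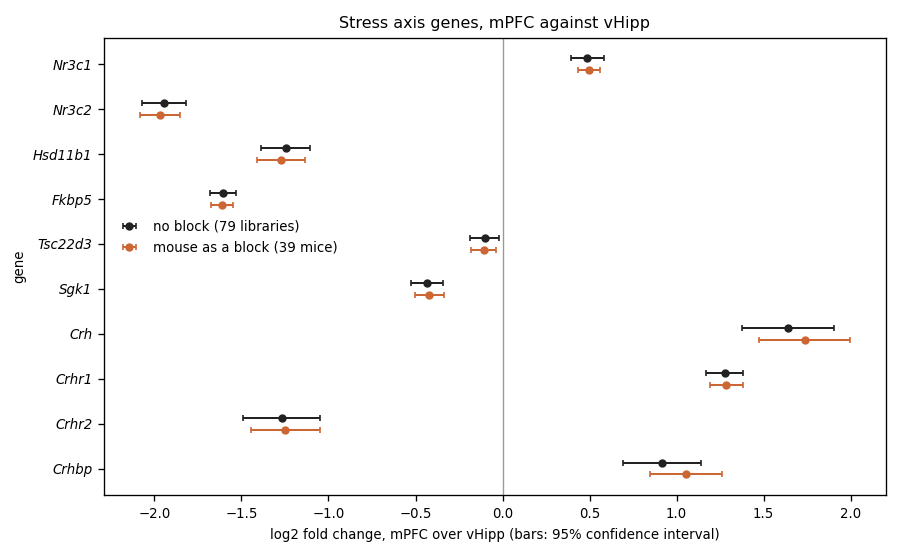
Log2 fold change of the 10 genes, mPFC over vHipp, as points with 95% confidence intervals, without and with the mouse as a block. Nr3c1, Crh, Crhr1 and Crhbp lie to the right of 0 and the other 6 genes to the left, with Tsc22d3 nearest to 0 at -0.10, and both fits give nearly the same values.

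Of the members, 6 had an absolute LFC over 1 between the regions, a size that 13.3% of all genes reached. With the mouse as a block there were 7, since Crhbp then had an LFC of 1.05. Per kilobase of exon, the order of levels differed between the regions. In the mPFC, Nr3c1 was at 13.4 ± 1.66 CPM per kb (SD, n = 39), followed by Crhr1 at 11.8 ± 1.54, Crhbp at 9.60 ± 1.83, Nr3c2 at 8.23 ± 2.05, Tsc22d3 at 7.64 ± 1.14 and Sgk1 at 7.17 ± 0.814 CPM per kb. The mean ± SD ranges of neighbors in that order overlapped. Lower by more than the SD was Fkbp5 at 2.33 ± 0.287 CPM per kb, near Crh at 2.00 ± 0.517 and Hsd11b1 at 1.79 ± 0.479, and Crhr2 was last at 0.217 ± 0.066 CPM per kb. In the vHipp, Nr3c2 stood apart from the rest at 31.6 ± 4.02 CPM per kb (SD, n = 40). Sgk1 (9.68 ± 1.60), Nr3c1 (9.55 ± 1.55), Tsc22d3 (8.22 ± 0.965), Fkbp5 (7.10 ± 0.730), Crhbp (5.16 ± 2.75), Crhr1 (4.88 ± 0.946) and Hsd11b1 (4.24 ± 0.764) followed, with mean ± SD ranges that overlapped between neighbors in that order. Crh at 0.641 ± 0.373 and Crhr2 at 0.530 ± 0.201 CPM per kb were lowest in the vHipp and lay within their SD of each other.

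Genes that work with the members were examined in lists for the same regional comparison. Of 23 other genes known to be induced by glucocorticoids, 12 were higher in the mPFC, 8 were lower and 3 did not pass (list median LFC 0.25, against -0.00027 over all genes). The highest differences included Cdkn1a, a cell cycle inhibitor (LFC 1.55, SE 0.054), and Dusp1, a phosphatase of stress-activated kinases (LFC 1.25, SE 0.086). The clock gene Per1 was higher in the mPFC as well (LFC 0.52, SE 0.044), whereas the inhibitor of mTOR signaling Ddit4 (LFC -0.73, SE 0.042), the transcriptional repressor Bcl6 (LFC -0.90, SE 0.075) and the small GTPase Rhob (LFC -0.44, SE 0.027) were higher in the vHipp, all at adjusted p of at most 2.75e-18 (edgeR).

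Of all genes, 24.5% were called higher and 24.4% lower in the mPFC. Of 13 chaperones and co-chaperones of the receptors, 3 were higher and 6 lower in the mPFC. Dnajb1, a co-chaperone of the heat shock protein family, was higher (LFC 0.51, SE 0.028, adjusted p = 8.01e-28, edgeR), and the cyclophilin Ppid was lower (LFC -0.18, SE 0.030, adjusted p = 2.05e-07, edgeR). Of 9 coregulators, 2 were higher and 4 lower. Of 12 genes of corticosteroid metabolism and transport, 10 were tested, 1 was higher and 3 were lower. Abcb1a, an efflux pump of the blood-brain barrier, was higher in the mPFC (LFC 0.30, SE 0.070, adjusted p = 0.000169, edgeR), and its paralog Abcb1b was lower (LFC -1.52, SE 0.176, adjusted p = 4.71e-12, edgeR). H6pd, which supplies the cofactor for the reaction of Hsd11b1, was close to equal, with a median of 8.58 CPM in the mPFC and 8.79 CPM in the vHipp (LFC -0.0077, SE 0.045). Of 10 urocortins and related peptides and receptors, 2 were higher and 1 lower, with the peptide gene Adcyap1 higher in the mPFC (LFC 1.60, SE 0.177, adjusted p = 6.59e-13, edgeR). The ligands of Crhr2 were barely detected: the highest library of Ucn, Ucn2 and Ucn3 in either region held 0.336, 0.205 and 0.307 CPM.

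Whether stress or ketamine changed the members 7 days after the injection was tested in each region. No member passed the adjusted threshold in any of 14 comparisons within the regions, where 0.0% of 28993 genes in the mPFC and of 28991 genes in the vHipp were called by the edgeR quasi-likelihood test. Social rank is not in the labels, so each group pooled dominant and subordinate mice. The study tested stress within ranks with the social box in its model, and reported called genes mainly in the mPFC of dominant, ketamine-treated mice. By DESeq2, 14 genes were called for stress averaged over treatments in the vHipp, where its filter left 2011 of 28991 genes with an adjusted p, Nr3c2 alone among the members and not called. By limma-voom none was called. For stress, an unadjusted p under 0.05 was reached by 3.52% of genes in the mPFC and 9.71% (2816 genes) in the vHipp, and by 0 and 3 members. For ketamine it was reached by 3.07% (891 genes) and 3.39% (984 genes), and by 0 and 1 members.

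The receptor genes and Fkbp5 had narrow intervals around 0. Those for stress treat mice as independent, although stress was given to whole social groups. For stress averaged over treatments, the 95% confidence interval of the LFC of Nr3c1 was -0.12 to 0.12 in the mPFC and -0.17 to 0.11 in the vHipp. That of Nr3c2 was -0.24 to 0.18 in the mPFC and -0.14 to 0.092 in the vHipp. For Fkbp5 the interval was -0.14 to 0.085 in the mPFC and -0.14 to 0.058 in the vHipp, and for Sgk1 it was -0.15 to 0.047 and -0.12 to 0.19. For ketamine averaged over stress groups, Fkbp5 had intervals of -0.12 to 0.099 in the mPFC and -0.10 to 0.097 in the vHipp, and Nr3c1 of -0.12 to 0.12 and -0.14 to 0.15. The genes with few counts had wider ones. For stress, Crhr2 had an interval of -0.41 to 0.17 in the mPFC, and Crh of -0.35 to 0.14 in the mPFC and -0.30 to 0.69 in the vHipp.

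**Figure D3:**
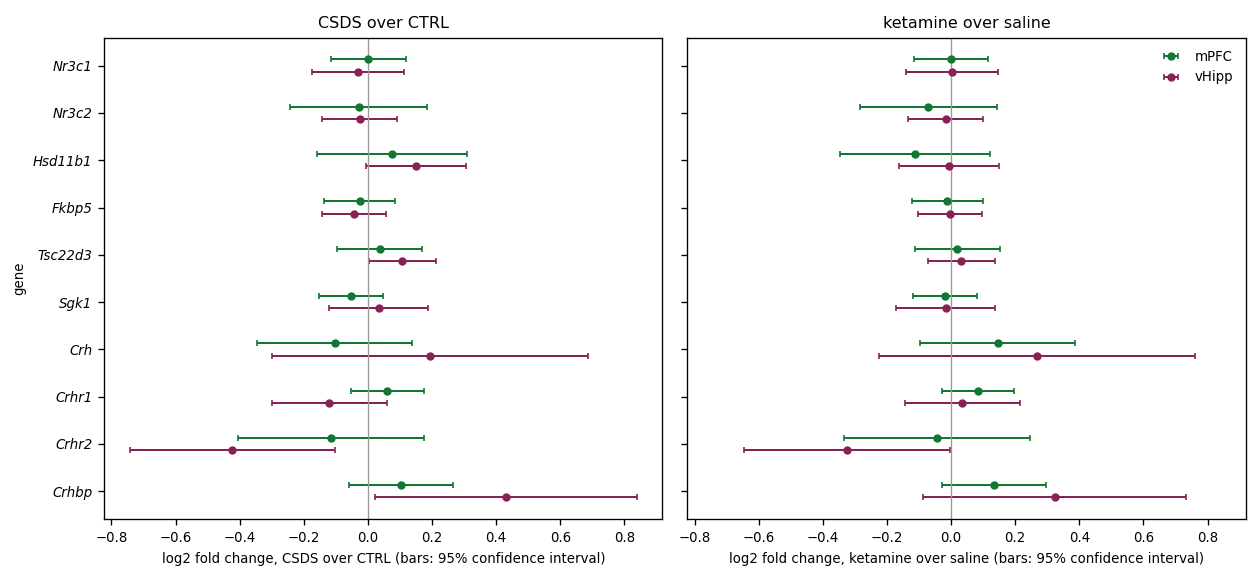
Log2 fold change of the 10 genes for stress (CSDS over CTRL, averaged over treatments) and for ketamine (ketamine over saline, averaged over stress groups), with 95% confidence intervals, in the mPFC and the vHipp. Intervals of Nr3c1, Nr3c2, Fkbp5 and Sgk1 include 0 in both regions, and in the vHipp those of Crhr2 (LFC -0.42) and Crhbp (LFC 0.43) for stress lie on opposite sides of 0.

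In the vHipp, Crhr2, Crhbp and Tsc22d3 were the members under an unadjusted p of 0.05 for stress. Crhr2 had a lowest, median and highest level of 1.49, 3.73 and 4.63 CPM in saline-treated CTRL mice, 1.26, 2.82 and 4.83 CPM in ketamine-treated CTRL mice, 0.635, 2.92 and 3.57 CPM in saline-treated CSDS mice and 1.28, 1.91 and 3.15 CPM in ketamine-treated CSDS mice. The 4 groups overlapped, with the lowest median in mice that had both stress and ketamine and the highest in mice that had neither. The LFC for stress was -0.42 (SE 0.159, 95% confidence interval -0.74 to -0.10, unadjusted p = 0.0109, adjusted p = 0.395, edgeR) and that for ketamine was -0.33 (SE 0.159, unadjusted p = 0.0468, adjusted p = 1.0, edgeR). Leaving out each set of 8 mice (4 CTRL and 4 CSDS mice with consecutive numbers) moved the stress LFC between -0.48 and -0.34. The interaction of stress and ketamine was -0.045 on the log2 scale (SE 0.317, 95% confidence interval -0.68 to 0.59).

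Crhbp in the vHipp had a lowest, median and highest level of 2.55, 6.53 and 14.2 CPM in saline-treated CTRL mice, 3.97, 7.93 and 16.8 CPM in ketamine-treated CTRL mice, 5.10, 9.05 and 16.4 CPM in saline-treated CSDS mice and 3.79, 10.2 and 26.9 CPM in ketamine-treated CSDS mice. All groups overlapped, and medians were higher in CSDS than in CTRL mice under either treatment. The LFC for stress was 0.43 (SE 0.203, 95% confidence interval 0.021 to 0.84, unadjusted p = 0.0398, adjusted p = 0.483, edgeR). It lay between 0.26 and 0.59 when each set of mice was left out. Tsc22d3 was 7.72% higher in CSDS mice (LFC 0.11, SE 0.052, unadjusted p = 0.0456, adjusted p = 0.504, edgeR), and without the library of mouse 11 its unadjusted p was 0.0675 (edgeR). Hsd11b1 had an LFC of 0.15 for stress in the vHipp (SE 0.077, 95% confidence interval -0.0074 to 0.31, adjusted p = 0.536, edgeR), with medians of 17.2 and 16.3 CPM in saline- and ketamine-treated CTRL mice and 19.3 and 18.4 CPM in the CSDS mice.

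The same vHipp comparison held differences in marker genes. The list median LFC was 0.28 for microglial, 0.22 for astrocyte, 0.28 for endothelial and 1.31 for choroid plexus markers. The choroid plexus value was 0.47 without mouse 9. All 4 microglial, 4 of 5 astrocyte, 3 of 4 endothelial and 3 of 5 choroid plexus markers were higher in CSDS mice at an unadjusted p under 0.05, which 9.71% of all genes reached in either direction, with none called after adjustment (edgeR, smallest adjusted p = 0.323). Of the other lists, 2 of 6 interneuron and 2 of 5 striatal markers and 1 of 5 neocortical markers were higher and none lower at that p, and of 6 hippocampal markers 1 was higher and 2 were lower (list median LFC -0.19). The neuronal, oligodendrocyte, meningeal and blood lists had 0 in either direction. Without mouse 11, which held 3043 CPM of summed astrocyte markers, the microglial, astrocyte, endothelial and choroid plexus counts were 3, 2, 1 and 3. Without mouse 9, which held 697 CPM of choroid plexus markers, they were 4, 4, 1 and 2. Median summed astrocyte markers were higher in CSDS than in CTRL mice under saline (1239 against 1120 CPM) and lower under ketamine (1049.5 against 1185 CPM), and those of choroid plexus were 24.5 against 22.7 CPM under saline and 20.1 against 21.5 CPM under ketamine. The summed microglial markers had a median of 158 CPM in saline-treated CTRL mice (108.9 to 174), 167 CPM in ketamine-treated CTRL mice (130 to 195), 175 CPM in saline-treated CSDS mice (141.1 to 233) and 166 CPM in ketamine-treated CSDS mice (146.1 to 437). Their part in the values of Crhr2, Crhbp and Tsc22d3 was not tested. Without mouse 11, the LFC for stress was -0.41 for Crhr2 and 0.47 for Crhbp, and without mouse 9 it was -0.44 and 0.47.

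In the mPFC, the members with an unadjusted p under 0.05 were Crhr1 and Crhbp, in comparisons that involve the ketamine-treated CSDS mice. Crhr1 had a lowest, median and highest level of 23.0, 27.9 and 36.5 CPM in saline-treated CTRL mice, 22.9, 27.7 and 33.8 CPM in ketamine-treated CTRL mice, 23.5, 28.0 and 31.8 CPM in saline-treated CSDS mice and 24.4, 33.1 and 35.8 CPM in ketamine-treated CSDS mice. The last group had the highest median and overlapped with each of the others. The LFC for ketamine in CSDS mice was 0.21 (SE 0.080, unadjusted p = 0.0131, adjusted p = 0.993, edgeR), beside 4.32% of all genes under an unadjusted p of 0.05. In CTRL mice it was -0.041 (SE 0.078), and the interaction was 0.25 (SE 0.112, 95% confidence interval 0.022 to 0.47, unadjusted p = 0.0321, adjusted p = 0.898, edgeR), where 5.31% of genes were under 0.05.

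Crhbp in the mPFC had a median of 15.9, 16.5 and 14.8 CPM in saline-treated CTRL, ketamine-treated CTRL and saline-treated CSDS mice, and one of 19.8 CPM (16.8 to 23.7) in ketamine-treated CSDS mice. The saline-treated CSDS libraries spanned 10.7 to 22.6 CPM and overlapped with the ketamine-treated ones. The LFC for ketamine in CSDS mice was 0.27 (SE 0.116, unadjusted p = 0.0259, adjusted p = 0.993, edgeR). Without the libraries of mice 2, 6 and 22, which were highest in oligodendrocyte markers, it was 0.17 (unadjusted p = 0.138, edgeR), and that of Crhr1 was 0.17 (unadjusted p = 0.0548, edgeR). The median of summed oligodendrocyte markers was 1410 CPM in saline-treated and 2163 CPM in ketamine-treated CSDS mice, and their part was not tested beyond that.

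Differences between the regions in these effects were tested for all members, and 0.0% of 31534 genes passed in either contrast (edgeR, with 6.86% of genes for stress and 3.46% for ketamine under an unadjusted p of 0.05, none of the members among them, and 0 calls by DESeq2). Crhr1 had the largest one for stress relative to its error, at 0.19 on the log2 scale (SE 0.106, unadjusted p = 0.0737, adjusted p = 0.750, edgeR), with an LFC of 0.060 in the mPFC and -0.12 in the vHipp. With the mouse as a block it was 0.20 (SE 0.093, unadjusted p = 0.0346, adjusted p = 0.625, edgeR). For Crhr2 the difference was 0.32 (SE 0.221, 95% confidence interval -0.12 to 0.76) and for Crhbp it was -0.31 (SE 0.225, 95% confidence interval -0.76 to 0.14).

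No gene of the lists was called for stress in either region (edgeR). The share of all genes under an unadjusted p of 0.05 was 3.52% for the mPFC and 9.71% for the vHipp. Of the 23 other glucocorticoid-induced genes, 2 were under an unadjusted p of 0.05 in the mPFC, Hif3a and Lcn2, both lower in CSDS mice, and 5 in the vHipp, with Pdk4 and Errfi1 higher and Rhob, Lcn2 and Plin4 lower. The list medians were -0.022 in the mPFC and -0.020 in the vHipp, against -0.00041 and -0.0025 over all genes. Rhob had an LFC of -0.11 in the vHipp (SE 0.033, unadjusted p = 0.00211, adjusted p = 0.340, edgeR). None of the 13 chaperones was under 0.05 in either region, with list medians of -0.0084 and -0.0010. Cyp11a1 in the mPFC and Abcb1a in the vHipp were under 0.05 among corticosteroid metabolism and transport genes, both higher in CSDS mice. Avpr1a in the mPFC was lower, and in the vHipp Adcyap1 was lower and Ucn3 higher, among the peptides and receptors. For ketamine, the counts under 0.05 were 1 and 2 of 23 for glucocorticoid-induced genes in the mPFC and the vHipp and 0 in both regions for the chaperones, the metabolism and transport genes and the peptides and receptors, against 3.07% and 3.39% of all genes. The coregulators are not reported here for stress or ketamine.

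Relations of the members across mice were examined after subtraction of group means, with 18 relations in 1 family and permutation tests within groups, adjusted by Benjamini-Hochberg. The level of Nr3c1 in the mPFC went with that in the vHipp of the same mouse (Pearson's r = 0.60, adjusted permutation p = 0.00168, Spearman's rho = 0.36, adjusted permutation p = 0.0986, n = 39). Without the 2 mice farthest from the median, r was 0.40. With set means subtracted rho was 0.56 (adjusted permutation p = 0.00318), and without the mPFC libraries of mice 2, 6 and 22 it was 0.44 (adjusted permutation p = 0.0468). Without the vHipp library of mouse 11 it was 0.32 (adjusted permutation p = 0.188). In each of the 4 groups, the mouse with the lowest Nr3c1 in the mPFC was also the one with the lowest Nr3c1 in the vHipp: mouse 24 at 74.2 and 50.6 CPM, mouse 23 at 79.3 and 57.2 CPM, mouse 18 at 83.8 and 57.9 CPM, and mouse 1 at 67.9 and 45.5 CPM. The highest library was from the same mouse in 1 of the 4 groups, mouse 25 among ketamine-treated CTRL mice. No relation between regions of the other 9 members passed the adjusted threshold by either measure, with Fkbp5 at r = 0.29 and rho = 0.35 and Crh at r = 0.025 and rho = -0.011.

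Among the glucocorticoid-induced members, Tsc22d3 and Sgk1 went together in the mPFC (r = 0.64, adjusted permutation p = 0.00018, from the smallest p that the permutations can give, rho = 0.60, adjusted permutation p = 0.00189), and r was 0.59 without the 2 libraries farthest from the median. In the vHipp r was -0.011, and whether the regions differ in this relation was not tested. Fkbp5 and Tsc22d3 in the mPFC had r = 0.47 (adjusted permutation p = 0.0125) and rho = 0.38 (adjusted permutation p = 0.0879). Without the mPFC libraries of mice 2, 6 and 22, r was 0.36 (adjusted permutation p = 0.101). With set means subtracted this pair had r = 0.53 (adjusted permutation p = 0.00551) and rho = 0.55 (adjusted permutation p = 0.00318). Tsc22d3 itself went with the summed oligodendrocyte markers in the mPFC (r = 0.52), and with those markers regressed out of both genes the relation of Tsc22d3 and Sgk1 had r = 0.54 and that of Fkbp5 and Tsc22d3 r = 0.40 (adjusted permutation p = 0.0315), with rho = 0.37 (adjusted permutation p = 0.0520).

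Crh and Crhbp went together in both regions. In the mPFC r was 0.56 (adjusted permutation p = 0.00225) and rho 0.60 (adjusted permutation p = 0.00189), and in the vHipp r was 0.62 (adjusted permutation p = 0.00045) and rho 0.52 (adjusted permutation p = 0.00978). Without the 2 libraries farthest from the median, r was 0.57 in the mPFC and 0.55 in the vHipp, and with oligodendrocyte markers regressed out it was 0.57 and 0.52. Interneuron markers were not regressed out, and their part in the relation of Crh and Crhbp was not tested. Among 15531 genes with a mean of at least 1 CPM in the vHipp, Crhbp ranked 8 in likeness to Crh, and in the mPFC it ranked 30 of 15690.

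**Figure D4:**
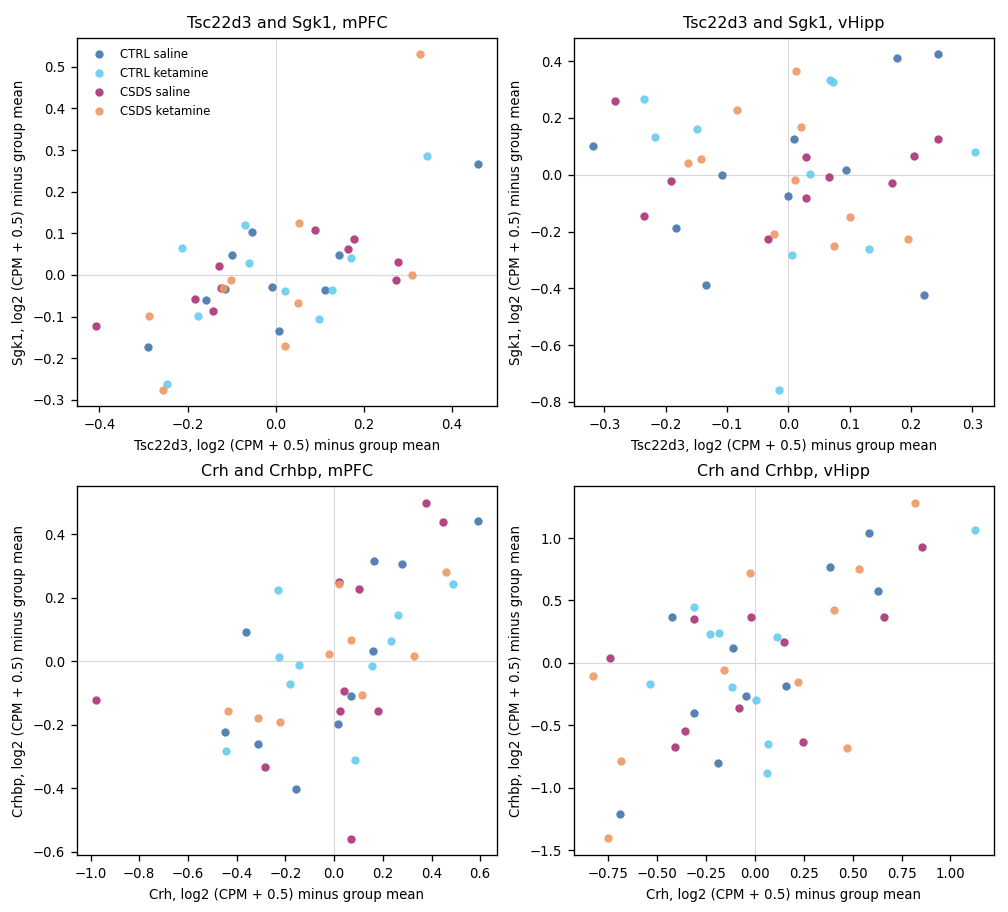
Pairs of members across libraries, as log2 (CPM + 0.5) minus the mean of the library's group on both axes. Each point is a library colored by group. Tsc22d3 and Sgk1 go together in the mPFC (r = 0.64) and show no slope in the vHipp (r = -0.011), and Crh and Crhbp go together in both regions (r = 0.56 and 0.62).

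The genes most like 3 members were listed by Pearson's r over libraries, as a description. For Fkbp5 they were Arhgap39 (r = 0.73), Lingo3, Smpd3, Gatad2a and Myh9 in the mPFC and Zfp189 (r = 0.70), Icam5, AU040320 and Ppp1r13b in the vHipp. For Tsc22d3 they were Syt2 (r = 0.75), Cerk, Cdr2l, Hr and Vamp1 in the mPFC and Rida (r = 0.70), Etfa, Plekhb2, S100b and BC064078 in the vHipp. For Crh they were Txnl4a (r = 0.68), Uba2, Rsl24d1, Rheb and Ralyl in the mPFC and Txndc12 (r = 0.68), Inava, Usp3, Ldhb and Hhatl in the vHipp. No gene was in the lists of both regions for the same member.

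Because libraries differed in marker levels, each member was also set against the summed level of 12 marker lists, with group means removed. These 240 relations were added after the data were seen. Of these, 31 had an adjusted permutation p under 0.05 by both Pearson's and Spearman's measure. Sgk1 in the vHipp went with the neuronal markers more closely than any other pair (r = 0.85, or 0.86 without the 2 farthest libraries, and rho = 0.84, both at an adjusted permutation p of at most 0.0016), while in the mPFC r was 0.27. Nr3c2 in the mPFC went with oligodendrocyte markers (r = 0.70) and astrocyte markers (r = 0.62). Nr3c1 in the vHipp went with neocortical markers (r = 0.69) and against neuronal markers (r = -0.58).

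Fkbp5 in the vHipp was lower where microglial (r = -0.59) and astrocyte markers (r = -0.58) were higher, and Crhbp in the mPFC was lower where meningeal markers were higher (r = -0.63). Crhr1 in the mPFC went against oligodendrocyte markers (r = -0.46). Crh and Crhbp both went with oligodendrocyte markers in the vHipp (r = 0.47 and 0.45) and against blood markers in the mPFC (r = -0.44 and -0.54). These relations describe what moved with the members across libraries of a region, and the part of cell content in the members' levels was not tested.

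**Figure D5:**
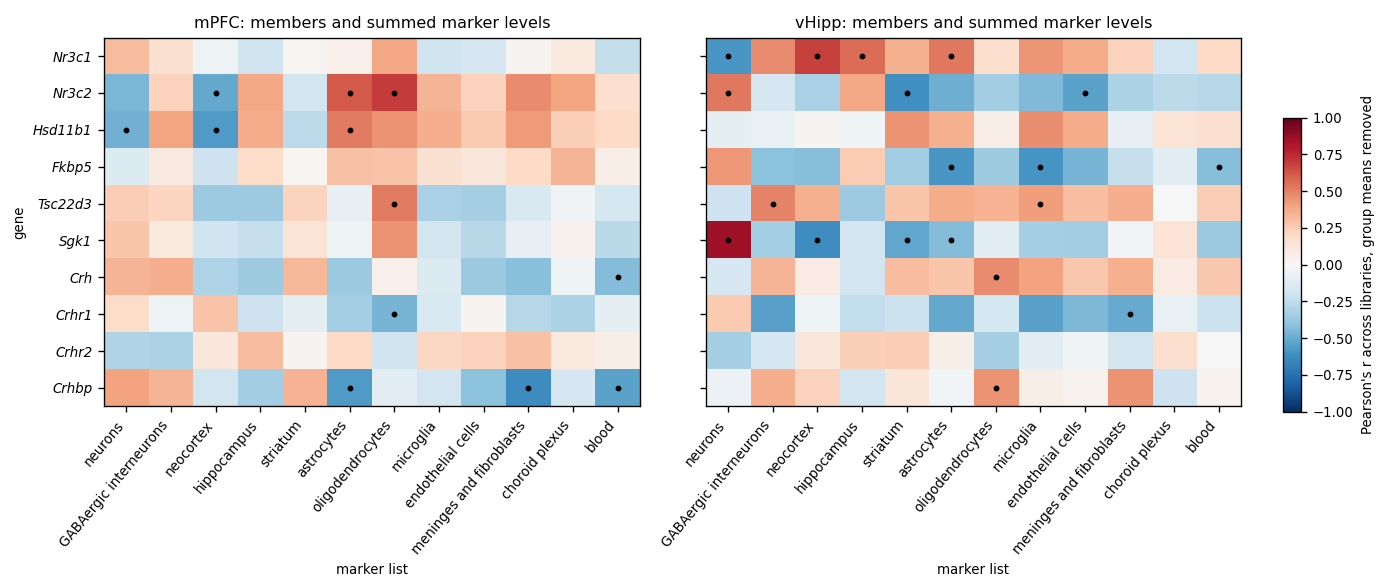
Pearson's r of each member (rows) with the summed level of each of 12 marker lists (columns) across libraries of the mPFC (left) and the vHipp (right), with group means removed. The color gives r, black dots mark relations with an adjusted permutation p under 0.05 by both measures, and the strongest square is Sgk1 with neuronal markers in the vHipp (r = 0.85).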

How the data were processed

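Medial prefrontal cortex and ventral hippocampus were punched from cryosections, RNA of low integrity was left out, and stranded mRNA libraries were sequenced in pairs by the authors. Per the labels and the study's methods, bcl2fastq 2.20.0.422 and the genome GRCm38 were used, and the aligner, the counting program and its use of strand are not given in the sources used here. The authors deposited unnormalized counts, a whole number for each gene in each library. Positions and exon lengths came with the deposited counts, and symbols came from a list of gene names that matched 55144 of 55471 identifiers. The positions of the members were checked against a GENCODE annotation of GRCm38. Promoter sequences came from RefSeq (GRCm38.p6).

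Genes with more than 10 counts in total and detected in more than 3 libraries were kept, the thresholds of the study's methods. The edgeR 4.0.16 quasi-likelihood test with TMM scaling was fitted in R 4.3.3 over the 4 groups of each region, and over all 79 libraries for comparisons between regions, two-sided, with Benjamini-Hochberg adjustment over all genes tested and a threshold of 0.05. The social box of the study's own model is not in the labels, so it was not used as a covariate. Replicates are separate mice, which the main fits treat as independent. In the study, stress was assigned to whole social groups of 4 mice. The standard errors, intervals and p reported for stress do not allow for that grouping. Libraries of the same mouse number from both regions come from the same animal, so a replicate block by mouse was fitted as an alternative. Other alternatives were DESeq2 1.42.0, limma 3.58.1 voom with runs of 4 neighboring mouse numbers as a random effect, RLE scaling, other filters, sets of 8 mice (a run of 4 CTRL and a run of 4 CSDS mice) as a covariate and leaving out each set. No pair of libraries within a group held identical counts. The scripts were tested on simulated data. Relations across mice used log2 (CPM + 0.5), with group means subtracted and 100000 permutations within groups (scipy 1.17.1, Python 3.11.15). The named genes were the 10 members, the genes of the lists and the 5 genes most like Fkbp5, Tsc22d3 and Crh, of which some are not reported here. The members and the lists were chosen with earlier results of these data known.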

Additional observations from a re-analysis of the deposited data

Results flagged for a closer look

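Of 80 groups of values, 10 members by 8 groups of libraries, 10 held a library at one end whose gap to the next was larger than Dixon's 95% critical value allows. For normal and independent values chance gives about 4, or 1 in 20. The values here were CPM without a log, and the members share libraries, so the 10 cannot be weighed against that number. Among the receptors and the enzyme, Nr3c2 was low in the vHipp of mouse 36, a ketamine-treated CTRL mouse, at 173 CPM against 199.9 CPM in the next library. Among ketamine-treated CSDS mice, Hsd11b1 was high in the vHipp of mouse 11, at 28.2 CPM against 21.0 CPM. That library was also the highest in summed astrocyte, microglial and endothelial markers, at 3043, 437 and 250 CPM.

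Each of the glucocorticoid-induced members had 1 such library in the mPFC, from the 3 mice with the highest oligodendrocyte marker levels. Fkbp5 was at 31.8 CPM in mouse 2, a saline-treated CSDS mouse, against 23.7 CPM in the next library. Tsc22d3 was at 45.8 CPM in mouse 22, a saline-treated CTRL mouse, against 36.9 CPM. Sgk1 was at 49.7 CPM in mouse 6, one of the ketamine-treated CSDS mice, against 37.6 CPM. The part of oligodendrocytes in these levels was not tested.

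The CRH system had 5 such values, all in the vHipp. Crh was at 2.26 CPM in mouse 23, a ketamine-treated CTRL mouse, against 0.862 CPM in the next library, and Crhbp was at 16.8 CPM in the same library against 10.8 CPM. Crhbp was at 16.4 CPM in mouse 4, a saline-treated CSDS mouse, against 11.1 CPM. Crhr1 was high in mouse 37, a ketamine-treated CTRL mouse, at 18.2 CPM against 13.9 CPM, and low in mouse 11 at 5.25 CPM against 10.0 CPM.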

How the results depend on the processing

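The regional differences of 9 members kept their direction and their call under every alternative run, and of 201 counts of calls under alternatives 186 were 0 both ways, which says little of stability. Of the other 15, 13 were within 1.5 times of the reported count. With the mouse as a replicate block, 15437 genes differed between regions against 15415 without it, and it changed no call of a member. Calls of 0 for stress averaged over treatments in the vHipp became 14 by DESeq2, which gave 9 of the 10 members no adjusted p there. Apart from those 9 values, no member was called within a region or for a difference between regions under the settings run, with the smallest adjusted p at 0.243 (edgeR, Crhr2 for stress in the vHipp without set 1). The regional difference of Tsc22d3 no longer passed without a filter (LFC -0.094) and, in an alternative chosen after seeing the data, without the vHipp library of mouse 11 (LFC -0.097). Of 18 relations, 5 passed by Pearson's r and 3 by rank, and 5 by rank with set means subtracted. The relation of Fkbp5 and Tsc22d3 did not pass without mice 2, 6 and 22 (r = 0.36), also chosen after seeing the data. Crh and Crhr2 had the lowest counts of the members, so counting error weighs most on their values. The cause of these shifts was not tested.

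Directions turned in 45 of 573 member values of stress and ketamine, all of values that were not called. For ketamine in the mPFC, leaving out each set gave Crhr2 from -0.26 to 0.068, Fkbp5 from -0.047 to 0.021, Nr3c1 from -0.0095 to 0.032, Sgk1 from -0.043 to 0.022 and Tsc22d3 from -0.021 to 0.087. For stress in the mPFC it gave Fkbp5 from -0.079 to 0.022, Hsd11b1 from -0.0020 to 0.14, Nr3c1 from -0.017 to 0.019 and Nr3c2 from -0.094 to 0.016. For ketamine in the vHipp it gave Crhr1 from -0.0021 to 0.075, Fkbp5 from -0.021 to 0.017, Hsd11b1 from -0.047 to 0.059, Nr3c1 from -0.040 to 0.063, Nr3c2 from -0.045 to 0.022 and Sgk1 from -0.042 to 0.014. For stress in the vHipp it gave Nr3c1 from -0.069 to 0.0078, Nr3c2 from -0.048 to 0.011 and Sgk1 from -0.025 to 0.12. By limma-voom, ketamine gave Crhr2 0.0070 and Nr3c1 -0.0068 in the mPFC and Nr3c1 -0.011 in the vHipp, where Nr3c1 was -0.0018 with the set as a covariate. For stress in the mPFC, Nr3c1 was -0.0015 by DESeq2, -0.0018 by filterByExpr, -0.00088 without a filter and -0.0014 with RLE scaling. Without mice 2, 6 and 22, Nr3c1 in the mPFC was -0.0060 for stress and -0.012 for ketamine, and Fkbp5 was 0.026 for ketamine. Without mouse 11, ketamine in the vHipp gave Fkbp5 0.017 and Nr3c1 -0.030, and without mouse 9 Nr3c1 -0.011.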
